A study of Mus musculus with 3 samples.

Results

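The 6 genes Lyz1, Lyz2, Lcn2, Saa3, Camp and Slpi were chosen by name as secreted antimicrobial and acute-phase genes, with earlier results of these data known. They were followed among the 22350 protein-coding genes annotated on chromosomes 1 to 19 and X. RNA Pol_II phosphorylated at Ser5 of the carboxy-terminal repeat was mapped by ChIP-Seq in primary bone marrow-derived macrophages of female Fvb mice (Fvb/Hsd in the methods) on the 7th day of differentiation in L929-conditioned medium. There was 1 Ser5 library from untreated cells, 1 Ser5 library from cells given lipopolysaccharide (LPS, a bacterial cell wall component) at 10 ng/ml for 2 hours, and 1 library of input DNA from untreated cells, made without antibody. The labels name no transgene or mutation, and do not say how many mice were pooled. No input library of LPS-treated cells was used here. Since each condition had 1 library, no test between conditions could be made, and every interval given here is an exact 95% interval for counting error only.

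Macrophages and neutrophils secrete proteins that damage or starve bacteria. Lysozyme cuts the peptidoglycan of bacterial cell walls. In the mouse it is encoded by a pair of tandem genes, Lyz2, the lysozyme of macrophages, and Lyz1, the lysozyme of Paneth cells in the intestine. Lcn2 encodes lipocalin 2, which binds the iron carriers of bacteria. Saa3 encodes a serum amyloid A of the acute-phase response that is made outside the liver, Camp encodes the precursor of the cathelicidin peptide of neutrophil granules, and Slpi encodes an inhibitor of neutrophil proteases. Ser5 phosphorylation marks Pol_II that has begun to transcribe, and is densest near transcription start sites (TSSs).

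The libraries held 7616771 (untreated), 6249819 (LPS) and 7533308 (input) aligned tags on these chromosomes. Each tag was counted once, at its 5′ end. A density below is in tags per 1000000 tags of its library and per kb of region, and a gene is called higher or lower when the ratio of densities was at least 2 or at most 0.5 with at least 10 tags in the libraries compared. The tags spanned 45 bases in the untreated Ser5 library, 30 in the LPS library and 36 in the input, so a position that was unique in the genome for one library was not always unique for another. Over the gene bodies of all coding genes with enough tags, 5.82% were higher after LPS and 11.2% were lower. All 8 genes of an LPS-response list (among them Tnf, Il6 and Ccl5) were higher in the library labelled LPS, with ratios from 5.55 to 396. The list was chosen with earlier results of these data known. Of 8 macrophage markers, 7 were at least 2 times above input in each Ser5 library, against 37.6% of coding genes in untreated cells and 32.8% after LPS. Of these 8 markers, Cd68 (0.263), Csf1r (0.449) and Itgam (0.229) were lower after LPS and Emr1 (3.01) was higher. Of 10 neutrophil and granulocyte precursor markers, 7 had at least 10 Ser5 tags. Of these 7, none was higher after LPS (5.82% of coding genes) and Prtn3 was lower (11.2%). The density over all 10 genes together was 0.544 in untreated cells, 0.328 after LPS and 0.728 in the input, and Retnlg had 0 tags in both Ser5 libraries. At least 2 times above input in each Ser5 library were 2 of the 10. These were Cebpe (22 untreated, 13 LPS and 3 input tags) and Ngp (13, 9 and 5 tags). In bulk cells, fewer cells with a signal and less signal per cell cannot be told apart.

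The tandem lysozyme genes lie on the minus strand of chromosome 10 (mm9), Lyz2 (ENSMUSG00000069516.6) at chr10:116714390-116719377 and Lyz1 (ENSMUSG00000069515.5) at chr10:116724852-116729924, so that the 3′ end of Lyz1 is 5475 bp upstream of the Lyz2 TSS. Their coding sequences are 444 bases each and identical at 422 bases (95%). The likeness extends to the introns and promoters. The longest identical run of the gene bodies, 172 bases, is intronic in both (chr10:116716228-116716399 in Lyz2 and chr10:116726703-116726874 in Lyz1), and it is shown because no tag of any library that lies within it can be placed in one gene or the other.
shared intronic run: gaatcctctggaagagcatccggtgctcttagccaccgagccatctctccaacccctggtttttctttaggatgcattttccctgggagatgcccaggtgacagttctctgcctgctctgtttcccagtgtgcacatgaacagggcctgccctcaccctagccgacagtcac
The 200 bases before each TSS (chr10:116719378-116719577 for Lyz2 and chr10:116729925-116730124 for Lyz1, read 5′ to 3′ on the minus strand) are shown for the same reason. Capitals mark bases that lie in a stretch of 30 bases with another match in the genome at up to 2 mismatches, which were 77 bases for Lyz2 and 107 bases for Lyz1.
Lyz2 promoter: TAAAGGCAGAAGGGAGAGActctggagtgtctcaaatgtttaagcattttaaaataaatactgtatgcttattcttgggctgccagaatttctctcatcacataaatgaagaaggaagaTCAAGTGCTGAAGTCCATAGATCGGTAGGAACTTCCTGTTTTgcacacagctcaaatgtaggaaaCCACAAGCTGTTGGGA
Lyz1 promoter: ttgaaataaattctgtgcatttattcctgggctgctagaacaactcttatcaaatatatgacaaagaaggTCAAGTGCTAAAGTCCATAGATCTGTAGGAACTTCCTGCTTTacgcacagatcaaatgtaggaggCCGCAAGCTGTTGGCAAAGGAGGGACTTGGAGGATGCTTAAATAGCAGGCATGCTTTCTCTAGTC
In the Lyz2 gene body, 24.7% of tag positions were unique at 30 bases and 37.7% at 45 bases. For Lyz1 the shares were 30.5% and 44.7%. Of the 3732 stretches of 30 bases in the Lyz2 gene body that matched elsewhere, 3389 (90.8%) matched within 5 kb of Lyz1. The other members were far more accessible to short tags, from 86.3% (Saa3) to 99.3% (Lcn2) of positions unique at 30 bases, and 82.7% over the long gene record of Slpi.

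The other sequences shown are the promoters of the members with the largest gains, Saa3 (chr7:53971047-53971246, minus strand) and Lcn2 (chr2:32243318-32243517, minus strand). Capitals mark the letters TTGCNNAA, on either strand, which is a form of the motif of C/EBP factors. It began 99 bases before the TSS of Saa3 and 158 bases before that of Lcn2.
Saa3 promoter: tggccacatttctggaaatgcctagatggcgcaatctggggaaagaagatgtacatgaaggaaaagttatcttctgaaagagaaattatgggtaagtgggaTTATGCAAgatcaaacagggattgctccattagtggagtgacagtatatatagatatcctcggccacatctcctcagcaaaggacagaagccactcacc
Lcn2 promoter: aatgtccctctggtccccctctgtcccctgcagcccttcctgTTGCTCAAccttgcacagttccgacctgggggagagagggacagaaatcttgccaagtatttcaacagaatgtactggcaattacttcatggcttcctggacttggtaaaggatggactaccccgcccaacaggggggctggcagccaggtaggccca
These letters were present in the same window of 7.20% of the 22350 coding genes, and in that of no other member. For Slpi, the window was taken before the TSS of its short transcript Slpi-001 (described below), not before that of its gene record. The shares of coding genes were counted at the TSSs of gene records. Searched likewise on both strands, GGGA and TCC with any 3 bases between (NF-kB, 3.33% of coding genes), GAGGAAG (PU.1, 8.83%), TGANTCA (AP-1, 4.80%) and TATAAA (10.0%) were found in the 200-base window of none of the 6 members. No overlap between motifs therefore arose, and a match is a description of letters, not a binding site.

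Over the gene body, 4 of the 6 members (Saa3, Lcn2, Camp and Slpi) were higher after LPS, against 5.82% of 17386 coding genes with enough tags, and 1 member (Lyz2) was lower, against 11.2%. The median ratio of LPS to untreated was 2.98 over the members and 0.873 over all coding genes tested. Since the members were chosen with earlier results of these data known, these counts describe the members and are not a test. In the window of 1 kb on each side of the TSS, 4 members had enough tags. Of these, 3 were higher (5.61% of 12536 coding genes) and 1 was lower (14.1%). Slpi had too few tags at the TSS of its gene record. With its short transcript Slpi-001 instead, taken up after seeing the data, 5 members had enough tags and 4 were higher. The ratio of Slpi-001 in this window was 4.95 (3.63 to 6.86). All 6 members passed the minimum of 10 tags over the gene body. When the libraries were scaled to their tags outside peaks, the gene body counts stayed at 4 higher (6.85% of coding genes) and 1 lower (8.97%). Against the input, 1 member (Lyz2) was higher over the gene body in untreated cells (37.6% of coding genes), and 5 were after LPS, all but Lyz1 (32.8%).

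**Figure D1:**
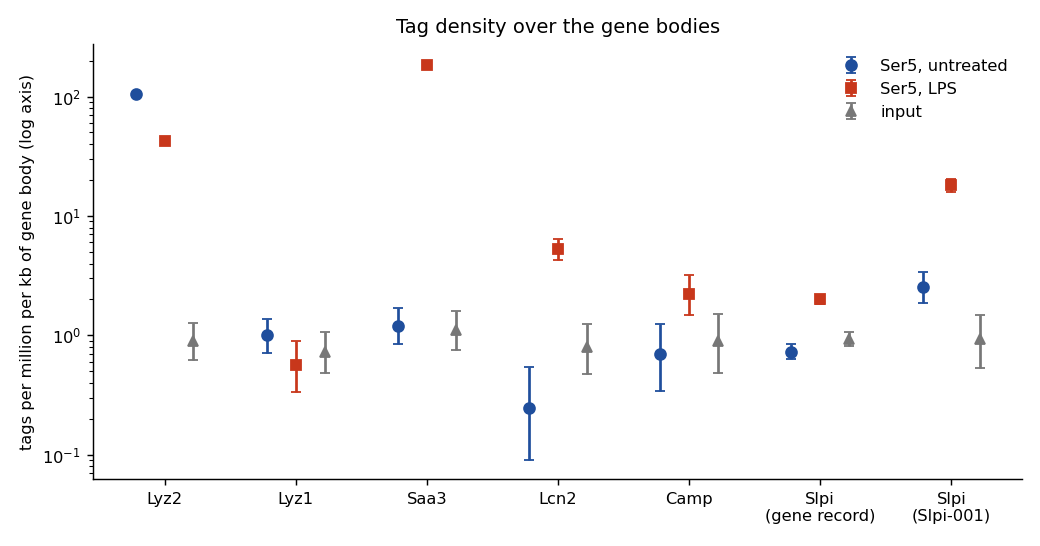
Tag density over the gene bodies of the 6 members, in tags per 1000000 per kb on a log axis, with Slpi drawn for its whole gene record and for the transcript Slpi-001. Points are single libraries (untreated Ser5, LPS Ser5 and input) and bars are exact 95% Poisson intervals. Saa3 went from 1.21 to 182 and Lyz2 from 105 to 42.6, while Lyz1 stayed near the input on this scale.

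Saa3 (ENSMUSG00000040026.7, chr7:53967368-53971046, minus strand) had the largest ratio among the members. Its gene body held 34 tags in untreated cells, 4196 after LPS and 31 in the input. The densities were 1.21 (0.840 to 1.70), 182 (177 to 188) and 1.12 (0.760 to 1.59). On this scale the untreated library was at the input level and the LPS library stood alone. With the libraries scaled to tags outside peaks, the untreated to input ratio of Saa3 was 2.06 (1.23 to 3.47). A level equal to the input was therefore not held under that scaling. The LPS to untreated ratio came to 150 (107 to 217), which ranked second from the top of the 17386 genes, and its density after LPS ranked 15th. Around the TSS the counts were 12, 1642 and 16, a ratio of 167 (95.2 to 323). In the kb before the TSS, 3 tags became 190.

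No Ser5 peak lay on Saa3 in untreated cells. After LPS a single peak of 6276 bp (chr7:53965075-53971350) covered the whole gene and ran past its 3′ end. The 2 kb past the gene end had 117 untreated and 1724 LPS tags, a ratio of 18.0 (14.9 to 21.8), and held the start of the next gene, Saal1, at 1318 bp from the end of Saa3. An untreated peak of 107 tags was already there (chr7:53965587-53966202), and held 408 tags after LPS, a ratio of 4.65 (3.75 to 5.80). Signal that ran on from Saa3 and signal of the Saal1 promoter cannot be told apart in this stretch. Over its own gene body Saal1 went from 240 to 384 tags, a ratio of 1.95 (1.66 to 2.30), under the limit of 2.

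Upstream of Saa3, 4 peaks were called after LPS and none before. Their midpoints were 1512, 2905, 4143 and 8594 bp before the TSS. The farthest (chr7:53979382-53979897) had 1 untreated, 31 LPS and 3 input tags, with a ratio of 37.8 (6.30 to 1540), and the peak at 4143 bp had 3, 38 and 4 tags, with a ratio of 15.4 (4.90 to 78.2). The peak nearest to the gene had 9, 32 and 11 tags, and its ratio was smaller, 4.33 (2.02 to 10.3). Saa4, the next serum amyloid gene on this side, stood apart from this pattern with 5 untreated, 8 LPS and 24 input tags over its body.

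Lcn2 (ENSMUSG00000026822.9, chr2:32240153-32243317, minus strand) had 6 untreated, 104 LPS and 19 input tags in its gene body. The densities were 0.249 (0.0913 to 0.542), 5.26 (4.30 to 6.37) and 0.797 (0.480 to 1.24). On this scale the untreated library was below the input, at a ratio of 0.312 (0.102 to 0.813), and the LPS library above both. At least 2 times below the input in untreated cells were 31.9% of coding genes. With the libraries scaled to tags outside peaks, the untreated to input ratio of Lcn2 was 0.594 (0.194 to 1.55). A level below the input was therefore not held under that scaling. The LPS to untreated ratio came to 21.1 (9.38 to 58.9), 26th from the top of 17386 genes. Its density after LPS ranked 1514th, far below that of Saa3. The TSS window held 5, 72 and 3 tags, a ratio of 17.5 (7.18 to 55.7).

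The Ser5 tags after LPS were densest in the first kb of Lcn2, with 47 tags against 2 in untreated cells. Peaks in the LPS library lay at the TSS (chr2:32242682-32243377, 2 untreated and 49 LPS tags), just before it, and at 2 places in the body. A further peak was centred 558 bp past the gene end (chr2:32239264-32239927) with 1 untreated, 42 LPS and 1 input tags. In contrast, the peak at the neighbour 1110008P14Rik (chr2:32237102-32237791) had 125 untreated and 61 LPS tags, a ratio of 0.595 (0.431 to 0.814). Over their bodies, neither neighbour of Lcn2 passed the limits, with ratios of 0.829 (0.651 to 1.05) for 1110008P14Rik and 1.12 (0.866 to 1.45) for Ptges2.

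Slpi (ENSMUSG00000017002.8) is recorded over 35026 bp (chr2:164179806-164214831, minus strand) because of 1 long transcript. The gene record had 195 untreated, 439 LPS and 246 input tags and a ratio of 2.74 (2.31 to 3.26), with 4, 5 and 16 tags in the window at its far TSS. Nearly all the enrichment lay in the short transcript Slpi-001 (chr2:164179806-164182243), which was taken up after the counts of the gene record were seen. Over its 2438 bp there were 47, 275 and 17 tags. The densities were 2.53 (1.86 to 3.37), 18.0 (16.0 to 20.3) and 0.926 (0.539 to 1.48), the LPS to untreated ratio came to 7.13 (5.22 to 9.94), and untreated cells were already 2.73 (1.54 to 5.08) times above input.

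The first kb of Slpi-001 held most of its tags, 37 in untreated cells and 193 after LPS, and the kb before the TSS was at the input level, with 14 tags in each Ser5 library and 15 in the input. A peak of 553 bp at the TSS in untreated cells (chr2:164181777-164182329) gave way after LPS to a peak of 2111 bp over nearly the whole transcript (chr2:164180228-164182338). The 2 kb past the gene end went from 16 to 100 tags, with 4 in the input, a ratio of 7.62 (4.47 to 13.8). Matn4, whose annotated end is 298 bp from the far TSS of the Slpi record, had 16 and 21 tags against 66 in the input.

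Camp (ENSMUSG00000038357.7, chr9:109749889-109751970, minus strand) had the fewest LPS tags of the members that were higher. Its gene body had 11 untreated, 29 LPS and 14 input tags. The densities were 0.694 (0.346 to 1.24), 2.23 (1.49 to 3.20) and 0.893 (0.488 to 1.5), and the LPS to untreated ratio came to 3.21 (1.56 to 7.13), the lower end of which was under 2. The TSS window had 21, 58 and 24 tags and a ratio of 3.37 (2.01 to 5.84). Most of these tags preceded the TSS, where the kb before it went from 13 to 44 tags. The LPS peak at this place (chr9:109751789-109752600) was centred 224 bp before the TSS, and a small second peak of 9 LPS tags lay at the 3′ end. Camp had no peak in untreated cells. Of its neighbours, Nme6 had a ratio of 0.854 (0.663 to 1.10) and Cdc25a of 0.726 (0.613 to 0.858).

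**Figure D2:**
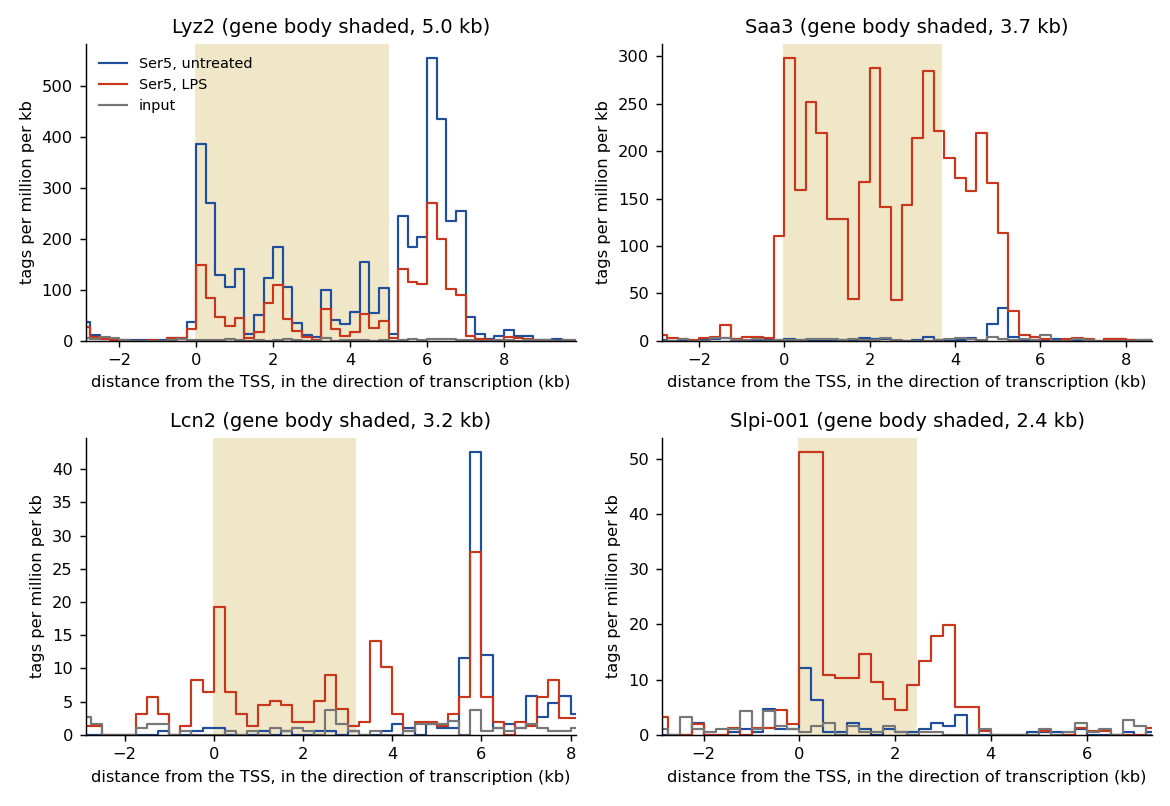
Ser5 and input tag density in bins of 250 bp against the distance from the TSS in the direction of transcription, for Lyz2, Saa3, Lcn2 and Slpi-001, with the gene body shaded and each panel on its own linear scale. In Lyz2 both Ser5 libraries run past the gene end, along the Saa3 gene body the untreated library stays at the input level, and the tall block on the right of the Lcn2 panel is the neighbour 1110008P14Rik, higher in untreated cells.

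Lyz2 had the highest Ser5 density of the members before treatment. Its gene body held 3994 untreated, 1328 LPS and 34 input tags. The densities were 105 (102 to 108), 42.6 (40.3 to 45) and 0.905 (0.627 to 1.26), and the untreated density was 116 times that of the input (83.0 to 168). With 1 tag kept per position and strand it was 71.2 times the input (49.7 to 106), and with the libraries scaled to tags outside peaks 221 times (158 to 320). In untreated cells it ranked 19th of 17386 genes, and after LPS 96th. The LPS to untreated ratio came to 0.405 (0.381 to 0.431) over the gene body and 0.361 (0.327 to 0.398) in the TSS window, where the counts were 1786, 529 and 17.

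The size of this difference depended on which tag positions were compared. At positions unique at 30 bases, which every library could reach, the Lyz2 gene body held 2290 untreated, 1133 LPS and 27 input tags and the ratio was 0.603 (0.561 to 0.648), no longer under 0.5. In the TSS window the ratio became 0.555 (0.495 to 0.621). With 1 tag kept per position and strand, the gene body ratio was 0.521 (0.482 to 0.563) at all positions. With both restrictions together, chosen after seeing the data, it was 0.763 (0.695 to 0.836), nearer to the median of 0.873 for all coding genes at all positions. The LPS density was lower than the untreated density in each of these counts, and the ratio was above 0.5, so not called, in each of these restricted counts. The part that the different tag lengths had in the value at all positions was not tested further. Keeping 1 tag per position and strand left 2207 of 3994 untreated and 908 of 1328 LPS tags in the Lyz2 gene body. The denser library thus lost the larger share. The same setting took the Saa3 ratio from 150 to 101. How far it drew such ratios toward 1 was not tested. At positions unique at 30 bases, Saa3, Lcn2, Camp and Slpi-001 moved little, with gene body ratios of 149, 21.1, 3.21 and 7.13.

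**Figure D3:**
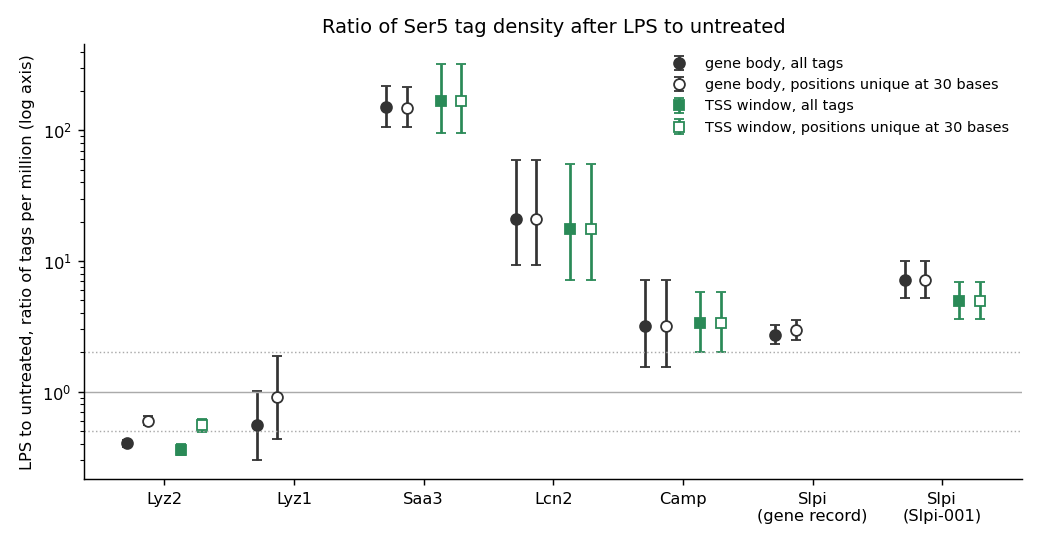
Ratio of LPS to untreated Ser5 tag density, on a log axis, for the gene body and the TSS window of each member with at least 10 Ser5 tags, with all tags (filled) and with positions unique at 30 bases (open). Bars are exact 95% intervals for counting error and dotted lines mark ratios of 0.5 and 2. The open and filled points separate for Lyz2 (0.405 and 0.603 over the gene body) and nearly coincide for Saa3 (150 and 149).

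Along Lyz2, the first kb past the TSS had 1695 untreated and 481 LPS tags, a ratio of 0.346 (0.312 to 0.383), and the rest of the body had a ratio of 0.449 (0.414 to 0.486). At positions unique at 30 bases these ratios were 0.545 and 0.641. The 2 kb past the gene end carried 4047 untreated, 1613 LPS and 27 input tags, a ratio of 0.486 (0.458 to 0.515), or 0.532 at positions unique at 30 bases. Since this flank was more often unique than the gene body (64.6% against 24.7% at 30 bases), levels were also taken per kb of positions unique at each library's own tag length. On that scale the untreated density was 253 in the body and 343 in the flank, and after LPS it was 147 and 190. A flank above the body is common. Per kb of all positions, unique or not, it was found for 49.6% of coding genes in untreated cells and 45.3% after LPS. On that plain measure Lyz2 had 105 in the body and 266 in the flank in untreated cells, and 42.6 and 129 after LPS. From 2 to 5 kb past the end there were 216 untreated, 49 LPS and 14 input tags.

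Lyz1 lay close to the input. Its gene body held 39 untreated, 18 LPS and 28 input tags, with densities of 1.01 (0.718 to 1.38), 0.568 (0.336 to 0.897) and 0.733 (0.487 to 1.06). The LPS to untreated ratio came to 0.562 (0.303 to 1.01), and at positions unique at 30 bases, with 20, 15 and 27 tags, it was 0.914 (0.435 to 1.88). With 1 tag kept per position and strand it was 0.470 (0.228 to 0.911), and Lyz1 rather than Lyz2 was then the member called lower. Its TSS window had 4 untreated, 0 LPS and 11 input tags, and the interval of the LPS density there reached 0.295. A peak was nevertheless called in the 3′ part of Lyz1 in both libraries. The untreated one (chr10:116725215-116725997) had 29 untreated, 13 LPS and 5 input tags, of which 15, 10 and 5 were at positions unique at 30 bases. Outside that peak, on its 5′ side, the body had 9 untreated and 0 LPS tags.

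Over the 20 kb upstream of the Lyz2 TSS there were 318 untreated, 204 LPS and 185 input tags. The LPS to untreated ratio came to 0.782 (0.653 to 0.935), close to the median of 0.858 for the same stretch of all coding genes, of which 5.36% were higher and 11.2% lower. This stretch contains Lyz1, and the signal was not spread evenly over it. Between the Lyz2 TSS and the end of Lyz1 the counts were 219, 121 and 59, a ratio of 0.673 (0.535 to 0.845). Beyond the Lyz1 TSS they were 60, 65 and 98. The ratio of densities to the input there was 0.606 (0.432 to 0.843) in untreated cells and 0.799 (0.575 to 1.11) after LPS. How this stretch compares with the input when the libraries are scaled to tags outside peaks was not tested.

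The strongest peak between the lysozyme genes was centred 2776 bp before the Lyz2 TSS (chr10:116721781-116722525) and had 100 untreated, 58 LPS and 17 input tags. The densities were 17.6, 12.5 and 3.03, and the LPS to untreated ratio came to 0.707 (0.502 to 0.986), or 0.793 at positions unique at 30 bases. The LPS library had a peak at the same place, centred at 2744 bp. The middle 200 bases of the untreated peak (chr10:116722054-116722253, read on the minus strand) are printed for this site, and they held none of the motifs searched, which were found in 2.86% (NF-kB) to 11.8% (PU.1) of the middle 200 bases of all 53467 untreated peaks.
upstream peak: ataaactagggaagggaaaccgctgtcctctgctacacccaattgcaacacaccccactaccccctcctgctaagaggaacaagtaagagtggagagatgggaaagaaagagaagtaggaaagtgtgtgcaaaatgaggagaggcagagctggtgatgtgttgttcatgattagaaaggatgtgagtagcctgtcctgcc
In bins of 500 bp, the bin from 2.5 to 3.0 kb held 90 untreated and 53 LPS tags and the bin next to the TSS 80 and 41. The median bin held 2.00 tags in each Ser5 library and 4 in the input.

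**Figure D4:**
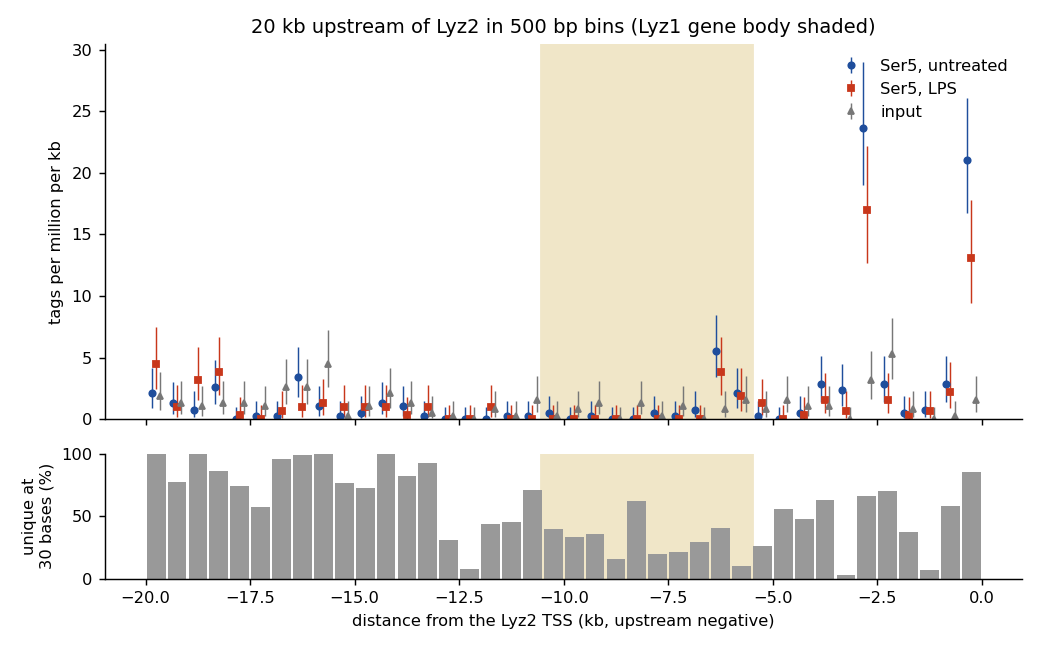
Tag density in 500 bp bins over the 20 kb before the Lyz2 TSS, with exact 95% Poisson intervals, for the untreated Ser5, LPS Ser5 and input libraries, and below it the percentage of tag positions in each bin that are unique at 30 bases. The Lyz1 gene body is shaded. Ser5 tags stand above the input in the bin next to the TSS, in the bin from 2.5 to 3.0 kb, and in a smaller one inside the 3′ part of Lyz1, and the lysozyme copies leave few unique positions in the shaded part.

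Counted by peaks, 3 of the 6 members (Lyz1, Lyz2 and Slpi) held a Ser5 peak in the gene body or TSS window in untreated cells, against 54.1% of all coding genes. After LPS all 6 held at least 1, against 51.4%. With only peaks of a score of at least 100, 5 did, since the LPS peak on Lyz1 scored 65.72, and the untreated count stayed at 3. The shares of all coding genes at that limit were not computed. Peaks covered 92.1% of the Lyz2 body and TSS window in untreated cells and 88.4% after LPS. For Saa3 the covered share went from 0 to 85.1%, for Lcn2 from 0 to 47.3%, for Camp from 0 to 37.1%, and for Slpi-001 from 16.1% to 71.7%. The highest score of a peak on Lyz2 in either library was 3100, as was that of the LPS peak on Saa3, so the scores do not order these peaks.

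Genes with the most similar densities over the 2 Ser5 libraries, by the distance on the log2 scale among 14336 coding genes, were Rsad2 (0.70), Ccl5 (1.02) and Cxcl10 (1.54) for Saa3, all genes of the antiviral and chemokine response. For Lcn2 they were Gbp3 (0.36), Slc7a11 (0.70) and Adora2a (0.80). For Slpi-001 they were Il27 (0.07), Icosl (0.19) and Traf1 (0.26). The nearest to Lyz2 were the histone genes Hist1h4f (0.34), Hist1h2ak (0.38) and Hist1h3h (0.47), whose tags are uncertain because near-identical copies exist, and to Lyz1, at the input level, Asnsd1, Cdan1 and Rnf183. For the whole gene record of Slpi they were Dst, Gpr18 and Gnb4. Camp had fewer than 50 Ser5 tags and was not compared.

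Among 23 other antimicrobial and acute-phase genes that the annotation holds, 16 had at least 10 Ser5 tags, 3 were higher after LPS (5.82% of coding genes) and 2 were lower (11.2%), with a median ratio of 1.08 against 0.873 for all coding genes. Nos2, the inducible nitric oxide synthase, went from 133 to 3101 tags, a ratio of 28.4 (23.9 to 34.1). Irg1, which encodes the enzyme that makes itaconate, went from 2146 to 35958, a ratio of 20.4 (19.5 to 21.3). Cd14, the LPS co-receptor, went from 620 to 1617, a ratio of 3.18 (2.90 to 3.49), and Mpeg1, which encodes the pore-forming perforin-2, from 1059 to 1147, a ratio of 1.32 (1.21 to 1.44). The smallest ratios among genes with at least 50 tags were those of Prtn3, a protease of neutrophil granules, at 0.294 (0.194 to 0.432), and Chi3l3, a chitinase-like lectin, at 1.05 (0.628 to 1.75). Pglyrp1, which binds peptidoglycan, was also lower, with 35 untreated and 11 LPS tags. Saa1 and Saa2 had at most 3 tags in any library, and the input too held only 3 and 1. Their Ser5 level can therefore not be judged, and how many of their positions are unique was not examined.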

How the data were processed

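The authors deposited the aligned tags of 3 libraries (mm9 positions, Bowtie, unique matches with at most 2 mismatches; version not given in the sources used here) and Ser5 peaks called with MACS against the input at a p-value of 1e-05, whose deposited score is minus 10 times the log10 of that p-value. Duplicate tags were kept. The tags span 45 bases in the untreated library and 30 in the LPS library, the reverse of what the methods text says. File positions count from 0, so 1 was added. Tags were counted at their 5′ ends over GENCODE M1 genes on NCBIM37 (mm9) with Python 3.11.15, numpy 2.4.6, pandas 2.3.3 and scipy 1.17.1. Ratios carry exact conditional and densities exact Poisson 95% intervals, for counting error only. A count of 0 was set to 0.5 for the rule of size. Uniqueness was computed against the whole genome with up to 2 mismatches and tested on simulated data, as was the counting. The members and lists were chosen with earlier results of these data known. Named genes were all members, their direct neighbours, the 3 genes nearest in density to each member with at least 50 tags, and the 4 largest and 2 smallest ratios of the antimicrobial list; Pglyrp1, Saa1 and Saa2 were named after their values were seen. Wfdc17 and Wfdc21 were not found in the annotation. No protein sequence was used here. Alternatives were duplicates counted once, scaling to tags outside peaks, a shift of 75 bp, stricter limits and unique positions.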

Additional observations from a re-analysis of the deposited data

How the results depend on the processing

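Of 85 member ratios of LPS to untreated under the alternatives, 72 stayed within the counting interval of the value reported, 13 moved beyond it and 0 changed direction among those called. The number of members lower over the gene body went from 1 to 0 at positions unique at all tag lengths, alone or together with 1 tag per position or with scaling to tags outside peaks. With 1 tag per position and strand alone it stayed at 1, but the member was Lyz1 (0.470) and not Lyz2 (0.521). In the TSS window it went from 1 to 0 under the same settings and with 1 tag per position and strand alone (Lyz2, 0.518). The number of members above input in untreated cells over the gene body went from 1 to 3 when scaled to tags outside peaks (Lyz1 2.62, Saa3 2.06), and to 2 with Slpi-001 or with unique positions and that scaling. The share of all coding genes above input under these settings was not computed, so this change cannot be read as particular to the members. With at least 50 tags, 383 coding genes were higher and 1178 lower in the TSS window, against 703 and 1772. Counting duplicates once gave 101 for Saa3 over the gene body, and scaling to tags outside peaks gave 0.436 for Lyz2. The combined settings and Slpi-001 were added after seeing the data. The cause was not tested, except that Slpi-001 is the shorter region by construction. No paired analysis was possible because each condition had 1 library, and none could be left out. Depth limits Camp and Lyz1, and also Lcn2 and Saa3 in untreated cells, with at most 39 tags each in the untreated gene body.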
